A study of Homo sapiens with 6 samples.

Results

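The WNT ligands, their Frizzled and other receptors, and the secreted proteins that tune them were examined at the end of definitive endoderm (DE) differentiation in cells with a normal or a reduced dose of PDHB, a subunit of the pyruvate dehydrogenase complex. The members were taken by gene symbol. They comprised every WNT, FZD, SFRP and RSPO gene in the table, together with FRZB, WIF1, LRP5, LRP6, ROR1, ROR2, RYK, PORCN and WLS. In all, 46 of the 49278 named genes met this rule, of which 19 are ligands, 10 Frizzled receptors, 5 other receptors or co-receptors, 6 secreted inhibitors, 4 R-spondins and 2 ligand secretion factors.

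RNA was sequenced in bulk from HUES8, an established human embryonic stem cell line. All 6 libraries came from cells kept for 3 days in DMEM with 100 ng/ml Activin A and serum albumin, a medium in which the labels list no WNT protein. Of the libraries, 2 were wild-type, and PDHB+/- clones 1 and 2 gave 2 each. The PDHB+/- lines carry a CRISPR-Cas9 edit of 1 PDHB allele and each was grown from a single clone, so that a property of a clone and an effect of the edit cannot be told apart within 1 line. The labels number the replicates 1 and 2 and do not say whether they came from separate differentiations, so the p-values measure the spread between these libraries. In the comparison of genotypes the 4 PDHB+/- libraries were taken as separate units, although they come from 2 clones.

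WNT proteins are secreted glycoproteins that need a lipid added by PORCN, and WLS carries the lipid-modified ligand to the cell surface. In the canonical branch a WNT joins a Frizzled to LRP5 or LRP6 and beta-catenin is spared from destruction, whereas in the noncanonical branches Frizzleds act with ROR1, ROR2 or RYK on cell polarity and movement. SFRP proteins, FRZB and WIF1 bind WNTs outside the cell, and R-spondins bind LGR receptors and keep Frizzleds on the surface by removing the ligases ZNRF3 and RNF43. In the gastrulating embryo WNT3 is required for the primitive streak, from which DE arises.

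Values were TPM, reads per unit of gene length scaled to a total of 1000000 in each library, and the reads behind each value were recovered from the TPM steps. The libraries held between 11367151 and 14315159 reads on genes. A level of 3 reads or fewer was treated as not distinguished from 0, which for a gene counted over 1000 bases was 0.522 to 0.638 TPM, and this limit covers counting error only. PDHB was measured at 369 and 362 TPM in wild-type, 178 and 166 TPM in clone 1, and 200.4 and 157 TPM in clone 2. Its log2 fold change was -1.06 (SE 0.10, limma, Benjamini-Hochberg adjusted p = 0.00077), in the direction given by the labels. Of the 9 DE markers, none was under 1 TPM, and their summed level was 16232 to 16441 TPM in wild-type against 11272 to 15375 TPM in PDHB+/- libraries. CER1 made up most of that sum, and without it, an alternative chosen after seeing the data, the other 8 came to 2591 to 2627 TPM against 2774 to 3221 TPM, so the direction of the sum turned. SOX17 and EOMES were called higher, GSC and HHEX lower, and the other 5 were not called, whereas with median-of-ratios scaling or limma voom 2 were called higher and 5 lower. Among the uncalled, CXCR4 had the largest change of all 9, from 359 and 367 TPM in wild-type to between 143 and 280 TPM in PDHB+/- libraries. Its log2 fold change was -0.86 (limma adjusted p = 0.056), beside -0.48 for CER1, -0.11 for FOXA2, 0.20 for GATA6 and 0.10 for GATA4. The 6 markers of pluripotent cells summed to 159 to 163 TPM in wild-type against 197 to 210.5 TPM in PDHB+/- libraries, with 4 called higher (NANOG, POU5F1, PRDM14, DPPA4) and ZFP42 called lower. For primitive streak and mesoderm markers the sums were 1053 to 1085 and 1015 to 1146 TPM. Most of each was MIXL1, which was not called (-0.04, limma adjusted p = 0.75). Of the 5 tested, 3 (KDR, HAND1, TBXT) were called higher, and KDR went from 17.7 to 45.8 TPM on average. HAND1 and TBXT passed the level filter only through their PDHB+/- libraries. TBX6, at 1.61 TPM in wild-type against 0.657 TPM in PDHB+/- cells on average, stayed under it. Sums of the 5 amnion and trophoblast markers were 12.2 to 13.9 and 24.8 to 34.9 TPM, with both tested genes (ISL1, GATA3) called higher. The 5 neural ectoderm markers summed to 17.3 to 19.3 and 18.6 to 22.8 TPM, with ZIC1 called higher and PAX6, the other tested gene, lower in mean level but not called (-0.62, limma adjusted p = 0.068). The 5 visceral endoderm markers summed to 9.51 to 12.3 and 11.2 to 24.8 TPM, the single tested one, APOA1, was not called (0.63, limma adjusted p = 0.13), and TTR was listed at 0 in every library. With median-of-ratios scaling 3 pluripotent markers were higher and 1 lower, 2 streak and mesoderm markers higher, 1 amnion and trophoblast marker higher, and 1 neural marker higher and 1 lower. In bulk RNA, fewer cells of a type and less RNA per cell cannot be told apart, and the part of these marker shifts in the results that follow was not tested.

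Within the Frizzled and the R-spondin families some members fell and others rose. FZD5 and FZD4 had the largest fall and rise among the Frizzleds on the log2(TPM + 1) scale, and RSPO4 fell while RSPO3 rose, so the 250 bases before the start sites of these 4 genes are shown side by side. The sequences are from RefSeq (GRCh38.p14), 5′ to 3′ on the strand of the gene, and capitals mark GC boxes (GGGCGG on the gene's strand or the opposite strand, overlapping matches included). They cover chr2:207769907-207770156 (minus strand) for FZD5, chr11:86955396-86955645 (minus strand) for FZD4, chr6:127118421-127118670 (plus strand) for RSPO3 and chr20:1002312-1002561 (minus strand) for RSPO4.
FZD5: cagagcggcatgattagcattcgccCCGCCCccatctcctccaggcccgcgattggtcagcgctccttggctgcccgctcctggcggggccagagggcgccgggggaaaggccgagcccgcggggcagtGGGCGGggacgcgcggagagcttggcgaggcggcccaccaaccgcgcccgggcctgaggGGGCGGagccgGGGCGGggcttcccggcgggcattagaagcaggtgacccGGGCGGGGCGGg
FZD4: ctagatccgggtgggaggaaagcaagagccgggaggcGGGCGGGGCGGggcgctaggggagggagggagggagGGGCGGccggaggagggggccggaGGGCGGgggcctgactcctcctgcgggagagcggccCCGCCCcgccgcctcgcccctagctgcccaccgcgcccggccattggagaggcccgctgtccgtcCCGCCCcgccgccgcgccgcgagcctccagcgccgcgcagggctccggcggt
RSPO3: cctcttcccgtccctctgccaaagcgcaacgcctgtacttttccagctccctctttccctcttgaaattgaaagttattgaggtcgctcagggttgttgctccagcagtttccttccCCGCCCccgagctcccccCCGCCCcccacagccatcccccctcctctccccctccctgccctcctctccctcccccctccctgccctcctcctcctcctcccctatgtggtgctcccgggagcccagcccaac
RSPO4: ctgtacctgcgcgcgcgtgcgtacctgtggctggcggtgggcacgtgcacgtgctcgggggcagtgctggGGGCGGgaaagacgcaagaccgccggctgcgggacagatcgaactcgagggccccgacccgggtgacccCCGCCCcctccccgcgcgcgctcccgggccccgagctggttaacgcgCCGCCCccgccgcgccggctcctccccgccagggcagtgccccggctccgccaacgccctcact

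The FZD5 and FZD4 windows each held 6 GC boxes, the RSPO4 window 3 and the RSPO3 window 2. Their GC contents were 76.8% for FZD5, 80.8% for FZD4, 77.2% for RSPO4 and 64.8% for RSPO3, against a median of 58.0% over the 27305 promoters in the RefSeq table. Promoters were found for 35 of the 46 members, with a median GC content of 71.6%. A GC box was present in 28 of the 35 (80.0%) and in 42.3% of all promoters. The TCF/LEF motif CTTTGAT, searched on both strands, was in 0 of the 35 and in 2.28% of all promoters, and the forkhead motif TGTTTAC was in 1 of the 35, that of WNT5B, and in 2.98% of all. The 3 motifs can overlap by an end base at most, and the matches describe the letters in these windows only.

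Of the 46 members, 26 had a mean of at least 1 TPM and were tested, and 16 of them were called at an adjusted p under 0.05 in PDHB+/- against wild-type (limma on log2(TPM + 1)). The background was 31.7% of 17291 tested genes. Higher calls numbered 12 members against 22.8% of all genes, and lower calls numbered 4 members against 8.86% of all genes. WNT5A, WNT9B, RSPO3 and FZD9 passed the level filter only through their PDHB+/- libraries, so these counts describe the tested members and support nothing by themselves. The median log2 fold change was 0.34 over the 26 and 0.13 over all genes. With median-of-ratios scaling, which moved the median of all genes to -0.00059, 10 members were higher and 5 lower, against 14.0% and 14.5% of all genes. The wild-type and PDHB+/- libraries did not overlap for 20 of the 26 members, and the same held for 54.9% of all tested genes.

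**Figure D1:**
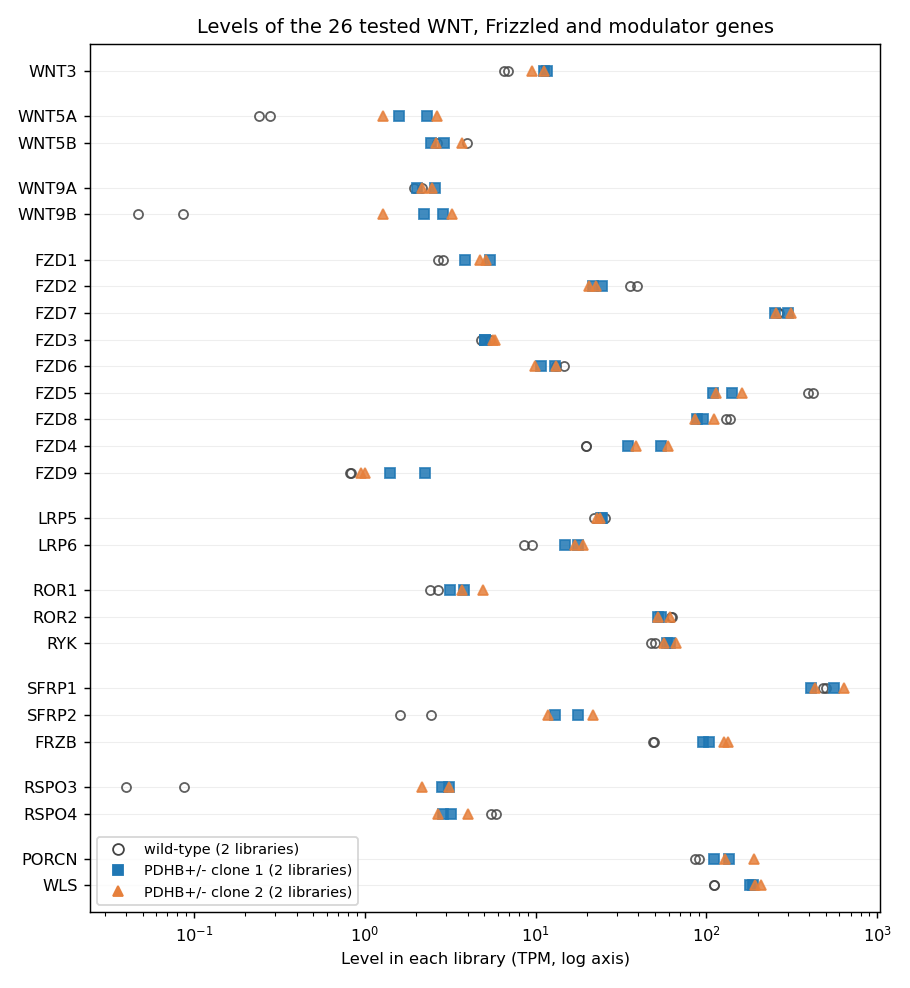
Level of each of the 26 tested members in each library in TPM on a log axis, grouped by role; circles are the 2 wild-type libraries, squares the 2 of clone 1 and triangles the 2 of clone 2. The PDHB+/- points of RSPO3, WNT9B, WNT5A and SFRP2 lie well to the right of the wild-type circles and those of FZD5 to the left, while the points of FZD7, LRP5 and SFRP1 overlap.

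**Figure D2:**
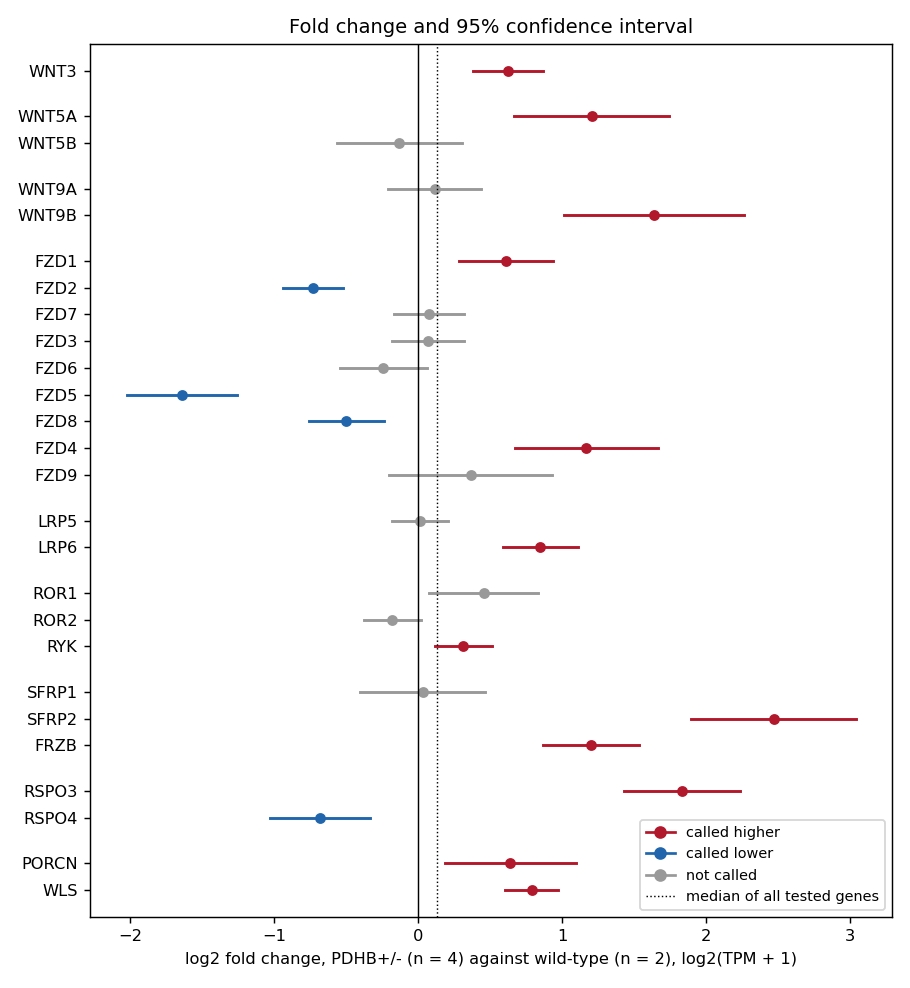
Log2 fold change of each tested member in PDHB+/- (n = 4 libraries from 2 clones) against wild-type (n = 2 libraries) on the log2(TPM + 1) scale, with its 95% confidence interval from limma. Red members were called higher, blue lower and grey not called; the dotted line is the median of all tested genes, 0.13. SFRP2 lies farthest to the right at 2.47 and FZD5 farthest to the left at -1.64.

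Among the canonical ligands, WNT3 was the single member above the level filter, and it was higher in PDHB+/- cells. WNT3, the streak-inducing ligand (chr17:46762506-46818692), was measured at 6.50 and 6.90 TPM in wild-type, 11.7 and 11.2 TPM in clone 1, and 9.48 and 11.2 TPM in clone 2. All 4 PDHB+/- libraries lay above both wild-type libraries. The log2 fold change was 0.62 (SE 0.10, 95% confidence interval 0.38 to 0.87, limma adjusted p = 0.0054), and without wild-type replicate 1 it was 0.59 and no longer called (adjusted p = 0.057).

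The other 9 canonical ligands were near or under the floor of detection. WNT2 had 0 reads in all 6 libraries, and WNT1 and WNT8B had at most 1 read in any library. WNT3A, a strong activator of beta-catenin signalling, had 1 and 0 reads in wild-type and 1 to 4 reads in PDHB+/- libraries. WNT7A reached 4 reads, WNT10A 3, WNT10B 6, WNT7B 7 and WNT8A 10 reads in their highest library. The ratio of reads between PDHB+/- and wild-type was 1.73 for WNT7B (95% counting interval 0.629 to 5.89) and 1.81 for WNT8A (0.666 to 6.16), so no difference was detectable at this depth for either. Ratios of this kind were taken only for members with few reads in wild-type and more in the pooled PDHB+/- libraries. Their intervals cover counting error and leave out the spread between libraries.

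Of the 4 noncanonical ligands 2 were tested, and WNT5A was called higher while WNT5B was not called. WNT5A, which signals through ROR2 and directs cell movements, rose from 0.239 and 0.278 TPM in wild-type to 1.59 and 2.303 TPM in clone 1 and 1.28 and 2.64 TPM in clone 2. Behind these values were 15 and 19 reads in wild-type and 87 to 189 reads in PDHB+/- libraries, and the groups did not overlap. On the log2(TPM + 1) scale, which understates the change of low genes, the difference was 1.21 (SE 0.23, limma adjusted p = 0.0086), and the ratio of the group means was 7.55. WNT5A passed the level filter only through its PDHB+/- libraries, so its p-value supports nothing by itself. The call was lost without wild-type replicate 1 (1.18, adjusted p = 0.064) and without replicate 2 (1.23, adjusted p = 0.061), fits in which the lone wild-type library was taken to vary like the others.

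WNT5B, the closest relative of WNT5A, was at 2.65 and 3.95 TPM in wild-type, 2.45 and 2.92 TPM in clone 1, and 2.61 and 3.69 TPM in clone 2. Its groups overlapped, and its log2 fold change was -0.13 (95% confidence interval -0.56 to 0.30, limma adjusted p = 0.62). WNT5A was counted over 13369 and WNT5B over 2326 bases, against 7153 and 4240 exonic bases in GENCODE, so levels of the pair per length depend on the gene model. WNT4, a ligand of the reproductive tract and kidney, was under the filter with 12 and 15 reads in wild-type and 5 to 10 in PDHB+/- libraries, so that the PDHB+/- libraries lay below. WNT11, a ligand of convergent extension, was also under the filter with 7 to 20 reads and overlapping groups.

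Of the ligands of mixed or less settled class, WNT9B was almost silent in wild-type and present in PDHB+/- cells. WNT9B, a ligand best known from the kidney, had 3 and 6 reads in wild-type against 144 and 226 reads in clone 1 and 89 and 237 reads in clone 2, which was 0.0469 and 0.0862 TPM against 2.23 and 2.89 TPM in clone 1 and 1.28 and 3.25 TPM in clone 2. Per read on genes its level was 33.4 times the wild-type level (95% counting interval 17.5 to 73.4), and its log2(TPM + 1) difference was 1.64 (SE 0.27, limma adjusted p = 0.0049). The ratio was taken because WNT9B had few reads in wild-type and many in PDHB+/- libraries, and its interval leaves out the spread between libraries. WNT9B also passed the level filter only through its PDHB+/- libraries, so the ratio and the p-value support nothing by themselves. WNT9B and WNT3 are neighbours on chromosome 17, 14496 bases apart, and both were higher. Closer pairs are WNT6 with WNT10A, which overlap, and WNT1 with WNT10B, 6586 bases apart. Each of these genes had at most 6 reads in any library, so neither pair could be compared. WNT9A, which neighbours WNT3A at 59065 bases, gave 1.93 to 2.16 TPM in wild-type against 2.03 to 2.56 TPM in PDHB+/- cells, with a difference of 0.12 (95% confidence interval -0.21 to 0.44, limma adjusted p = 0.56). WNT2B, under the filter, had 11 and 13 reads in wild-type and 24 to 45 in PDHB+/- libraries, and ST7L on the opposite strand overlaps 21.5% of its exonic bases. WNT6 had 0 to 6 reads and WNT16 0 to 2.

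Summed over each list, canonical ligands came to 7.36 ± 0.0923 TPM (SD, n = 2) in wild-type against 12.3 ± 1.42 TPM (SD, n = 4) in PDHB+/- cells, and all 4 PDHB+/- sums were higher. Noncanonical ligands came to 4.65 ± 0.998 TPM and 5.96 ± 1.33 TPM, and these groups overlapped. The ligands of mixed class came to 2.44 ± 0.297 TPM and 5.70 ± 1.04 TPM without overlap. The canonical share of the canonical and noncanonical sum was 64.9% and 58.1% in wild-type, 71.9% and 66.3% in clone 1, and 69.1% and 62.8% in clone 2, so the libraries overlapped. This difference was 6.01 percentage points, and without both WNT3 and WNT5B, the most abundant ligand of each list, it was -1.64 points. Levels of different genes also depend on the lengths they are divided by, and with GENCODE exonic lengths, an alternative chosen after seeing the data, the canonical share was 75.4% to 79.8% in wild-type and 71.4% to 78.8% in PDHB+/- libraries, a difference of -1.89 points. WNT5A rose within its class, from 6.06% and 5.19% of the noncanonical sum in wild-type to between 27.9% and 35.8% in PDHB+/- libraries, and with GENCODE lengths from 12.2% to 13.9% to between 48.1% and 55.6%. A single value compared between 2 and 4 libraries cannot give an exact one-sided permutation p below 0.0667, so sums and shares are given without a test.

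**Figure D3:**
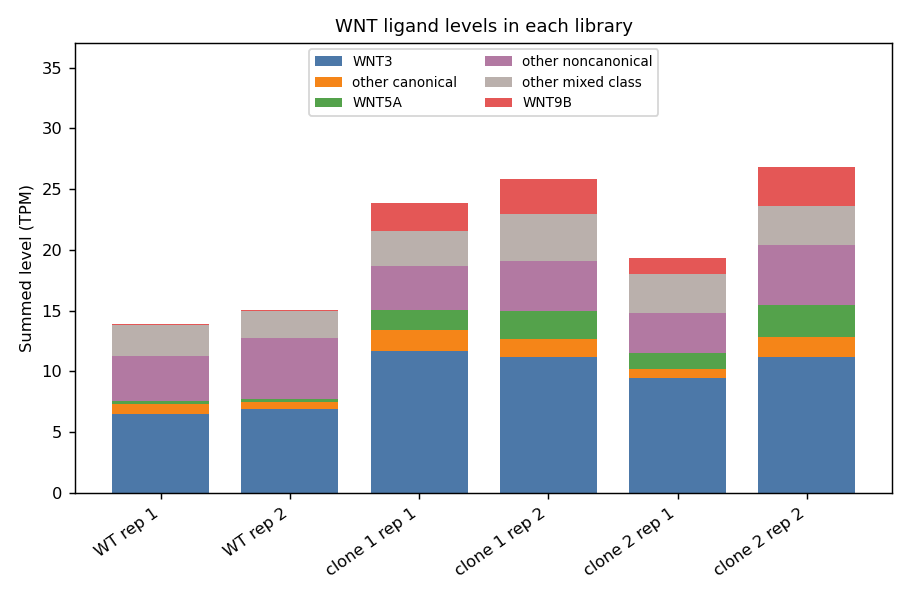
Summed level of the WNT ligands in each library in TPM, stacked by ligand or class; the bars start at 0 and each is 1 library. The total rose from 13.88 and 15.004 TPM in wild-type to between 19.3 and 26.9 TPM in PDHB+/- libraries, and WNT3 made up 41.6% to 49.1% of it in all 6 (with GENCODE lengths 63.8% to 64.0% in wild-type and 50.3% to 60.6% in PDHB+/- libraries).

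The machinery that lipid-modifies and exports WNTs was higher as well. WLS, the carrier of lipid-modified WNT (chr1:68098459-68232546), was at 110.6 and 110.6 TPM in wild-type, 179 and 188 TPM in clone 1, and 193 and 208 TPM in clone 2, a log2 fold change of 0.79 (SE 0.08, limma adjusted p = 0.00079). PORCN, the acyltransferase of the endoplasmic reticulum, was at 91.0 and 85.4 TPM in wild-type, 135 and 110.2 TPM in clone 1, and 189.8 and 128 TPM in clone 2. Both genes were above wild-type in 4 of 4 libraries, but PORCN varied widely between the PDHB+/- libraries. Its log2 fold change of 0.64 (SE 0.19, limma adjusted p = 0.042) was not called with median-of-ratios scaling (0.50, adjusted p = 0.069), quantile normalization (0.48, adjusted p = 0.052), without a variance trend (adjusted p = 0.061) or without a filter on low values (adjusted p = 0.10). It was also lost without wild-type replicate 1 (0.69), wild-type replicate 2 (0.60), replicate 1 of clone 1 (0.65) or replicate 2 of clone 2 (0.68). GNG12-AS1, which shares 2.49% of the WLS exonic bases on the opposite strand, was at 0.568 to 1.13 TPM in wild-type against 1.69 to 2.74 TPM in PDHB+/- cells.

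The Frizzled receptors changed in make-up. In wild-type cells FZD5 was the most abundant Frizzled, followed by FZD7 and FZD8, whereas FZD7 came before FZD5 in all 4 PDHB+/- libraries. FZD5 (chr2:207762598-207769906) is a Frizzled of early embryonic and gut epithelium. It was measured at 420.4 and 394 TPM in wild-type, 141 and 109 TPM in clone 1, and 162 and 114 TPM in clone 2. Every PDHB+/- library lay well under both wild-type libraries, and the mean was 3.10-fold lower. The log2 fold change was -1.64 (SE 0.16, 95% confidence interval -2.02 to -1.26, limma adjusted p = 0.00081), and it stayed called in 17 of 17 alternatives, from -1.86 to -1.42.

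FZD8, which with FZD5 forms a pair of close relatives, fell as well but by less. It was at 131 and 137 TPM in wild-type, 95.2 and 88.5 TPM in clone 1, and 111 and 85.6 TPM in clone 2, and the groups did not overlap. Its log2 fold change was -0.50 (SE 0.11, limma adjusted p = 0.015), and the call was lost without wild-type replicate 1 (-0.53, adjusted p = 0.083) or replicate 2 (-0.46, adjusted p = 0.12).

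Within the FZD1, FZD2 and FZD7 subfamily, the 3 members went 3 ways. FZD7, the Frizzled through which WNT3A acts in human embryonic stem cells, was at 265 and 264 TPM in wild-type, 299 and 254 TPM in clone 1, and 311 and 256 TPM in clone 2. These values overlapped, with a log2 fold change of 0.08 (95% confidence interval -0.17 to 0.32, limma adjusted p = 0.60) that turned to -0.07 with median-of-ratios scaling. FZD2, a receptor for WNT5A among others, fell from 35.9 and 39.4 TPM in wild-type to 24.4 and 21.7 TPM in clone 1 and 22.6 and 20.7 TPM in clone 2. Its change of -0.73 (SE 0.09, limma adjusted p = 0.0018) kept its call in 17 of 17 alternatives.

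FZD1, the least abundant of the subfamily, went the other way, from 2.69 and 2.87 TPM in wild-type to 5.44 and 3.89 TPM in clone 1 and 5.12 and 4.73 TPM in clone 2. The change was 0.61 (SE 0.14, limma adjusted p = 0.016). It was not called without wild-type replicate 1 (0.58, adjusted p = 0.11) or replicate 2 (0.65, adjusted p = 0.091), or without replicate 1 of both clones (0.49, adjusted p = 0.052).

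FZD4, a receptor for WNTs and for norrin, rose while FZD5 fell. It was at 19.8 and 19.7 TPM in wild-type, 54.2 and 34.7 TPM in clone 1, and 59.2 and 38.8 TPM in clone 2. The PDHB+/- libraries were all above wild-type, and within each clone the replicate numbered 1 was the higher. The log2 fold change was 1.17 (SE 0.21, limma adjusted p = 0.0073), and without wild-type replicate 1 or 2 it was 1.17 (adjusted p = 0.060) or 1.16 (adjusted p = 0.063). PRSS23 shares 18.9% of the FZD4 exonic bases on the opposite strand and was at 2.46 to 2.68 TPM in wild-type against 2.85 to 5.44 TPM in PDHB+/- cells, under the FZD4 levels in every library.

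The remaining Frizzleds were not called or not tested. FZD3, a Frizzled of planar polarity, was at 5.38 and 4.81 TPM in wild-type, 5.06 and 5.08 TPM in clone 1, and 5.81 and 5.63 TPM in clone 2 (0.07, 95% confidence interval -0.18 to 0.32). FZD6, its closest relative, was at 14.7 and 13.2 TPM in wild-type, 10.7 and 13.0 TPM in clone 1, and 9.97 and 13.1 TPM in clone 2. Its groups barely separated, and the change of -0.24 was not called (95% confidence interval -0.55 to 0.06). FZD9 had 9 and 10 reads in wild-type and 12 to 25 in PDHB+/- libraries (0.37, adjusted p = 0.28). FZD10 was under the filter with 5 to 16 reads.

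All Frizzleds together came to 886 ± 12.9 TPM (SD, n = 2) in wild-type against 599.5 ± 76.6 TPM (SD, n = 4) in PDHB+/- cells, and every PDHB+/- sum was lower. FZD5 made up 47.0% and 45.0% of the Frizzled sum in wild-type and 20.5% to 23.5% in PDHB+/- libraries. FZD7, whose level did not separate the groups, went from 29.6% and 30.1% to between 45.2% and 47.7% of that smaller sum. FZD4 went from 2.21% and 2.25% to between 6.53% and 8.60%. The share of FZD8 overlapped between the groups, at 14.6% and 15.7% against 14.9% to 16.6%. FZD1, FZD2, FZD4, FZD5, FZD7 and FZD8 were counted over lengths equal to those of GENCODE.

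**Figure D4:**
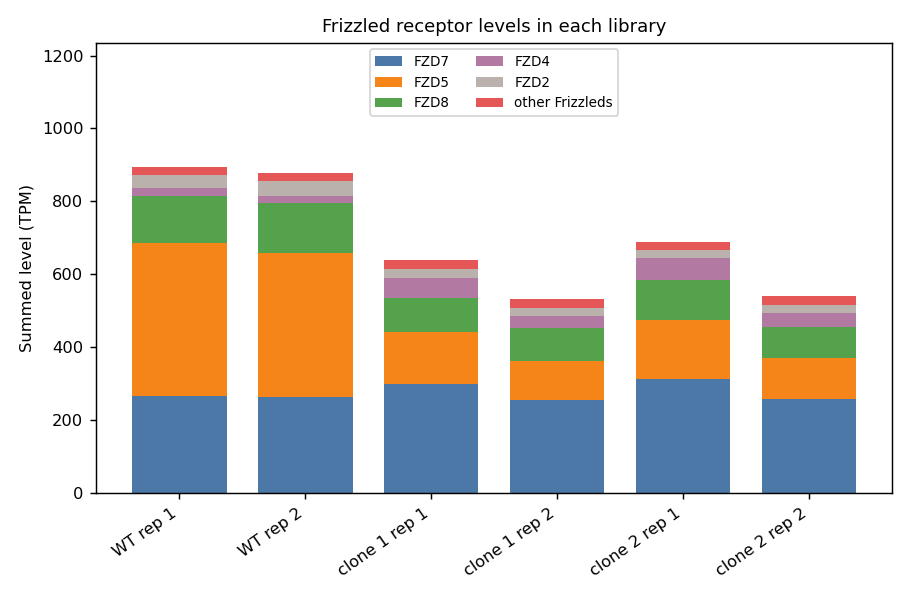
Summed level of the Frizzled receptors in each library in TPM, stacked by receptor; the bars start at 0 and each is 1 library. The FZD5 band shrinks from 420.4 and 394 TPM in wild-type to between 109 and 162 TPM in PDHB+/- libraries, the FZD4 band widens, and the FZD7 band stays between 254 and 311 TPM.

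Of the co-receptors of the canonical branch, LRP6 rose and LRP5 did not separate. LRP6 (chr12:12116025-12267044), the co-receptor with the stronger role in early embryos, was at 9.55 and 8.50 TPM in wild-type, 17.7 and 14.8 TPM in clone 1, and 18.9 and 17.0 TPM in clone 2. All 4 PDHB+/- libraries were above wild-type, and the change of 0.85 (SE 0.11, limma adjusted p = 0.0022) was called in 17 of 17 alternatives. LRP5 was at 25.5 and 22.0 TPM in wild-type, 24.3 and 24.5 TPM in clone 1, and 23.9 and 22.8 TPM in clone 2, a difference of 0.01 (95% confidence interval -0.18 to 0.21). LRP6 went from 27.3% and 27.9% of the LRP5 and LRP6 sum to between 37.6% and 44.1%, and with GENCODE lengths from 41.9% to 42.7% to between 53.7% and 60.3%.

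Of the 3 receptors of the noncanonical branches, RYK was called higher and ROR1 and ROR2 were not called. ROR2, a receptor tyrosine kinase for WNT5A, was at 62.8 and 61.8 TPM in wild-type, 54.3 and 52.3 TPM in clone 1, and 61.5 and 52.2 TPM in clone 2. Its change of -0.18 (95% confidence interval -0.38 to 0.02) was not called, but with median-of-ratios scaling it was -0.32 and called (adjusted p = 0.012), as it was with quantile normalization, with limma voom and without replicate 1 of clone 2 (-0.23, adjusted p = 0.042). ROR1, the other kinase of this pair, was at 2.69 and 2.41 TPM in wild-type against 3.15 to 4.95 TPM in PDHB+/- libraries. The groups did not overlap, yet the change of 0.45 was not called (adjusted p = 0.070) except without replicate 2 of clone 1 (0.53, adjusted p = 0.048) or of both clones (0.59, adjusted p = 0.042), with limma voom on the recovered reads (adjusted p = 0.027) or with a replicate block (adjusted p = 0.049). ROR1 was counted over 54746 bases, against 6718 exonic bases in GENCODE, so its level per length cannot be set beside that of ROR2.

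RYK, a WNT-binding receptor with an inactive kinase domain, was at 47.3 and 50.01 TPM in wild-type, 61.6 and 58.4 TPM in clone 1, and 66.7 and 56.6 TPM in clone 2. It was called higher (0.31, SE 0.08, limma adjusted p = 0.028), but not with median-of-ratios scaling (0.17, adjusted p = 0.098), quantile normalization (0.17, adjusted p = 0.064) or limma voom (0.18, adjusted p = 0.12). The call was also lost without wild-type replicate 1 (0.27), wild-type replicate 2 (0.35) or replicate 1 of clone 1 (0.31).

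The secreted inhibitors SFRP2 and FRZB rose, while SFRP1, which outweighed them, did not separate the groups. SFRP2 (chr4:153780591-153789083), a WNT-binding protein of mesenchyme and stem cells, was at 1.599 and 2.45 TPM in wild-type, 13.0 and 17.7 TPM in clone 1, and 11.8 and 21.6 TPM in clone 2. Its mean was 7.91 times the wild-type mean, and the log2 fold change of 2.47 (SE 0.24, limma adjusted p = 0.00080) was the largest among the tested members at a pseudocount of 1. With a pseudocount of 0.1 it was 2.91, below those of WNT9B (3.85) and RSPO3 (4.15). FRZB, an inhibitor first found in cartilage and also expressed in endoderm, was at 48.5 and 49.4 TPM in wild-type, 104 and 95.4 TPM in clone 1, and 134 and 127 TPM in clone 2. The change was 1.20 (SE 0.14, limma adjusted p = 0.0016). Both calls held in 17 of 17 alternatives.

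SFRP1 was the most abundant member in the whole set, at 501 and 479.8 TPM in wild-type, 558 and 409 TPM in clone 1, and 640.0 and 431 TPM in clone 2. The wild-type values lay inside the PDHB+/- range, and the difference was 0.03 (95% confidence interval -0.40 to 0.46). Its share of the 6 inhibitors was 90.7% and 90.1% in wild-type and 74.2% to 82.5% in PDHB+/- libraries. All 6 inhibitors summed to 552 and 532 TPM in wild-type and to between 523 and 788 TPM in PDHB+/- libraries, and the groups overlapped. Without SFRP1 the inhibitors summed to 51.4 and 52.6 TPM in wild-type and to between 114 and 149.5 TPM in PDHB+/- libraries. SFRP5, a foregut inhibitor, had 5 to 16 reads, SFRP4 at most 1 and WIF1 1 to 4, and none of these was tested.

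Among the R-spondins, RSPO3 rose and RSPO4 fell. RSPO3 (chr6:127118671-127199481), a secreted enhancer of WNT signalling, had 2 and 1 reads in wild-type against 72 and 79 reads in clone 1 and 54 and 82 reads in clone 2, or 0.0872 and 0.0401 TPM against 3.11 and 2.81 TPM in clone 1 and 2.17 and 3.13 TPM in clone 2. The wild-type values are under the floor of 3 reads. Per read on genes the PDHB+/- level was 41.3 times that of wild-type (95% counting interval 14.0 to 202), and the log2(TPM + 1) difference was 1.83 (SE 0.17, limma adjusted p = 0.00069). The ratio was taken because RSPO3 had few reads in wild-type and many in PDHB+/- libraries, and its interval leaves out the spread between libraries. The call held in 16 of 16 alternatives, but RSPO3 passed the level filter only through its PDHB+/- libraries. The call and this tally therefore support nothing by themselves. In GENCODE, 15.7% of the RSPO3 exonic bases are shared with an unnamed gene on the opposite strand.

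RSPO4, a relative known from nail development, went the other way, from 5.48 and 5.87 TPM in wild-type to 3.18 and 2.89 TPM in clone 1 and 4.00 and 2.70 TPM in clone 2. All 4 PDHB+/- libraries were below wild-type, with a change of -0.68 (SE 0.15, limma adjusted p = 0.014) that was not called without wild-type replicate 1 (-0.72, adjusted p = 0.080) or replicate 2 (-0.64, adjusted p = 0.11). RSPO1 had 0 and 1 reads in wild-type and 2 to 5 in PDHB+/- libraries, and RSPO2 had 0 and 0 reads against 1 to 3. The R-spondin sum was 5.77 ± 0.286 TPM (SD, n = 2) in wild-type against 6.31 ± 0.243 TPM (SD, n = 4) in PDHB+/- cells, while the share of RSPO3 in it went from 1.57% and 0.671% to between 33.1% and 51.6%. With GENCODE lengths, which differ for RSPO4, the share of RSPO3 was 0.390% to 0.911% against 22.9% to 39.0%.

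**Figure D5:**
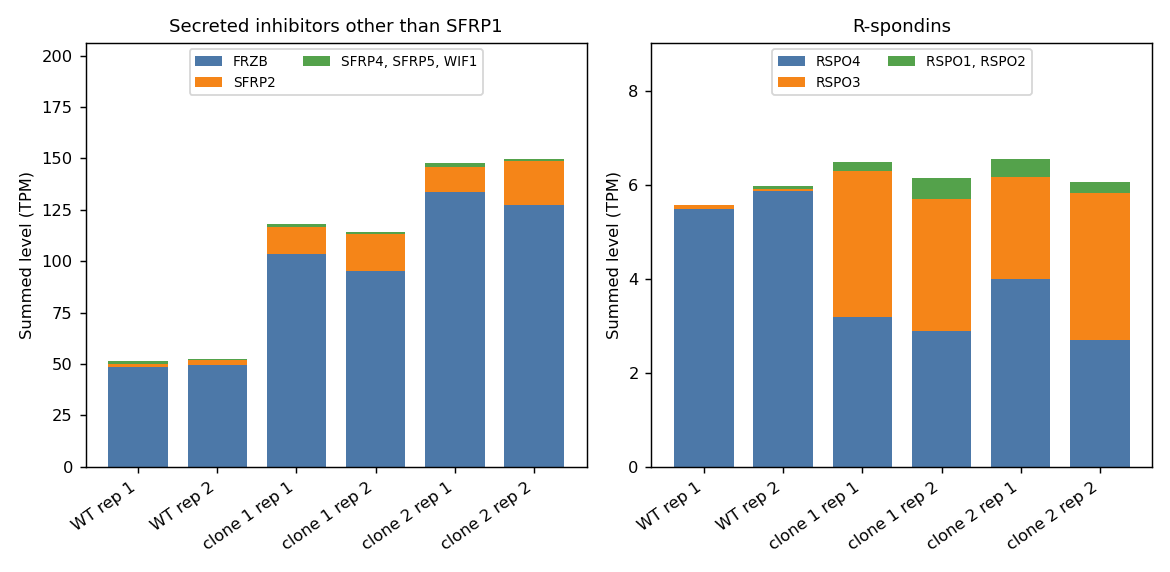
Summed level in TPM of the secreted inhibitors other than SFRP1, the most abundant (left), and of the R-spondins (right) in each library; the bars start at 0 and each is 1 library. On the left the FRZB and SFRP2 bands are taller in all 4 PDHB+/- libraries; on the right RSPO3 takes up 33.1% to 51.6% of the PDHB+/- bars and at most 1.57% of the wild-type bars.

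The clones were next compared with wild-type separately, in a fit of 3 groups. Both comparisons share the same wild-type libraries, so their values are set side by side only. In clone 1, 13 of the 26 members were called, 9 higher and 4 lower, against 19.9% of all tested genes. In clone 2, 13 were called, 11 higher and 2 lower, against 20% of all. Of all genes called, 2320 of 3433 were higher in clone 1 and 2508 of 3460 in clone 2. With median-of-ratios scaling clone 2 gave 7 higher and 4 lower, and 1358 of the 2857 genes called were higher. Clone 1 then gave 9 and 5, and 1707 of the 3464 genes called were higher. Quantile normalization gave 9 higher and 5 lower in each clone, beside 21.4% and 18.7% of all genes. Without rescaling, FZD5 was -1.71 in clone 1 and -1.58 in clone 2, FZD4 was 1.10 and 1.24, RSPO3 was 1.90 and 1.77, and SFRP2 was 2.43 and 2.50. FZD8 and RSPO4 were called in clone 1 (-0.54 and -0.73) and not in clone 2 (-0.45 and -0.63), and PORCN and FZD1 were called in clone 2 (0.82 and 0.65) and not in clone 1 (0.46 and 0.57). RYK was called in neither (0.30 and 0.33). In other fits FZD8 and RSPO4 gained the call in clone 2 under 6 of 14 and 4 of 13 alternatives, and FZD1 and PORCN lost theirs under 7 of 13 and 6 of 14. Median-of-ratios scaling was among these alternatives for all 4 genes, and WNT3 and WNT5A also lost their clone 2 call under it. In clone 1 FZD8 and RSPO4 lost their calls under 6 of 14 and 5 of 13 alternatives, and FZD1 gained the call under 1 of 13. Without wild-type replicate 1, clone 1 gave 2 called members and clone 2 gave 1, beside 1.97% and 1.48% of all genes, and without wild-type replicate 2 they gave 3 and 1, beside 2.63% and 1.70%. Without its own replicate 1, clone 1 gave 6, beside 5.97% of all.

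Tested directly, clone 2 against clone 1 called 0 of the 26 members by limma, against 0.0174% of all genes. Limma voom on the recovered reads also called 0 members, against 0.0752% of all genes. Of all 17291 tested genes 661 had an unadjusted limma p under 0.05, and so did 1 of the 26 members. It was FRZB, chosen after its value was seen, with 104 and 95.4 TPM in clone 1 and 134 and 127 TPM in clone 2, a difference of 0.39 (95% confidence interval 0.19 to 0.59, limma adjusted p = 0.76). For FZD5 the interval of the clone difference was -0.36 to 0.61, and for FZD4 it was -0.49 to 0.78, so neither difference can be told from 0 here.

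The replicates of each clone were next compared. From replicate 1 to replicate 2, SFRP1 was lower in both clones (558 and 409 TPM, 640.0 and 431 TPM), as were FZD4, FZD5 and PORCN, while SFRP2, WNT5A and WNT9B were higher in both. The sign of the difference between replicates was shared by both clones for 21 of 26 members (80.8%) and for 70.9% of all tested genes. The 5 members whose sign differed between the clones were WNT3, WNT9A, FZD3, LRP5 and RSPO3. The summed DE markers were 13713 and 15375 TPM in the replicates numbered 1 against 11368 and 11272 TPM in those numbered 2, and without CER1 they were 2998 and 3221 TPM against 2844 and 2774 TPM. The labels name no batch for these numbers, and what the replicates share was not tested. Without replicate 1 of both clones 17 members were called, 11 higher and 6 lower, beside 32.2% of all tested genes. Without replicate 2 of both clones 20 were called, 15 higher and 5 lower, beside 38.7% of all. In the latter fit FZD7 (0.21, limma adjusted p = 0.036), SFRP1 (0.29, adjusted p = 0.048), ROR1 (0.59, adjusted p = 0.042) and FZD6 (-0.40, adjusted p = 0.031) passed the threshold. In the former SFRP1 was called lower (-0.22, adjusted p = 0.024), so its direction turned with the replicates used, and ROR2 was called lower as well (-0.25, adjusted p = 0.020).

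Other genes of the pathway were followed through 5 lists of 51 genes, of which 43 were tested and 17 were called higher and 1 lower, beside 22.8% and 8.86% of all genes. DKK4 and PYGO1 passed the level filter only through their PDHB+/- libraries, and LGR6, at 0.820 TPM in wild-type against 0.242 TPM in PDHB+/- cells on average, was not tested, so this count describes the tested genes only. The median log2 fold change over the 43 was 0.23. With median-of-ratios scaling 11 were higher and 5 lower, beside 14.0% and 14.5% of all genes. The same shares of all genes are the background for each list below. Of the receptors for R-spondins and the ligases that remove Frizzleds, 0 of the 4 tested were called by limma, 0 by limma voom, and 0 had an unadjusted p under 0.05. LGR5, a receptor for R-spondins, was at 62.6 ± 1.41 TPM in wild-type against 69.0 ± 10.3 TPM in PDHB+/- cells (0.13, SE 0.13), LGR4 gave 0.08 (SE 0.14), ZNRF3 gave -0.15 (SE 0.12) and RNF43 gave -0.14 (SE 0.18).

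Among the other antagonists, 5 of 9 tested genes were called higher and 0 lower, against 5 and 2 with median-of-ratios scaling and 5 and 1 with limma voom. DKK1, which blocks LRP5 and LRP6, was at 8.73 and 8.56 TPM in wild-type, 148 and 186 TPM in clone 1, and 76.9 and 149.8 TPM in clone 2, a change of 3.80 (SE 0.31, limma adjusted p = 0.00044). DKK4, of the same family, rose from 0.498 and 0.573 TPM to between 3.10 and 12.7 TPM (2.34, SE 0.45, adjusted p = 0.0092). CER1, a secreted antagonist that is also in the DE marker list, was the most abundant of them at 13728 ± 173 TPM in wild-type (SD, n = 2) against 9973 ± 1787 TPM in PDHB+/- cells (SD, n = 4), a change of -0.48 that was not called (SE 0.19, adjusted p = 0.095). NOTUM, which strips the lipid from WNTs, APCDD1 and TRABD2B were the other 3 that rose.

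In the list of beta-catenin destruction and relay, 6 of 13 were higher and 0 lower. NKD1, an inhibitor that binds Dishevelled, rose from 2.54 and 2.09 TPM to between 13.2 and 19.0 TPM (2.45, SE 0.16, adjusted p = 0.00023), and GSK3B, a kinase that marks beta-catenin for destruction, rose by less (0.60, SE 0.12, adjusted p = 0.0091). AXIN2, a scaffold and common target of the canonical branch, went from 43.98 and 42.3 TPM to between 55.9 and 59.7 TPM (0.42, SE 0.07, adjusted p = 0.0045). CTNNB1, beta-catenin itself, gave 0.59 (SE 0.08, adjusted p = 0.0021). Genes that hold beta-catenin down and beta-catenin itself both stand among those that rose, and with median-of-ratios scaling 4 of the 13 were higher.

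Of the nuclear partners of beta-catenin, 4 of 7 were higher and 1 lower, or 1 and 1 with median-of-ratios scaling. LEF1, also in this list, was under the filter with 0 and 2 reads in wild-type and 6 to 19 in PDHB+/- libraries. PYGO1, a cofactor, had the largest rise at 1.48 (SE 0.16, adjusted p = 0.00098), followed by BCL9L at 0.52 (SE 0.15, adjusted p = 0.038). TCF7L2, a DNA-binding TCF, fell from 45.1 and 45.6 TPM to between 31.1 and 38.2 TPM (-0.40, SE 0.09, adjusted p = 0.016). Of the planar polarity and noncanonical relay genes, 2 of 10 were higher and 0 lower, beside 22.8% and 8.86% of all genes. With median-of-ratios scaling they were 1 and 2, beside 14.0% and 14.5% of all genes. The 2 called higher were PRICKLE1 with 0.72 (SE 0.14, limma adjusted p = 0.0093) and SCRIB with 0.23 (SE 0.07, adjusted p = 0.043).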

How the data were processed

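Bulk RNA-seq was analysed for 2 wild-type libraries and 2 libraries of each of 2 PDHB+/- clones, all at day 3. Per the study's methods and the submitters' notes, alignment was to hg38 by Bowtie2 (2.3.5.1 in the notes) with 1 location per read, and featureCounts assigned reads to genes. The deposited table holds TPM values made by the authors, a unit other than counts. The gene annotation and the use of strand in counting are not given in the sources used here, so reads of overlapping genes on opposite strands may not be told apart. An unnamed line with a total of 1000000 was dropped, and 0 columns were left unused.

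Reads were recovered from the TPM steps with the shortest gene length that gave whole reads in every library (tolerance 2e-06 plus 2e-08 per read), and whole reads were found for 99.99% of the 34899 genes above 0. Genes whose mean was 1 TPM or more (17291) were tested on log2(TPM + 1) by limma (lmFit, eBayes with a trend), between 2 genotypes and, for the clones, among 3 groups. Adjustment was by Benjamini-Hochberg over all tested genes, with calls at an adjusted p under 0.05. Scripts were tested on simulated data. DESeq2, named in the study, takes counts and was not used here. The members, the lists and the tests were chosen with earlier results of these data known.

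Every library's value was given for members that were called or averaged 5 TPM or more, and a range for most others. Of each pathway list, up to 2 called genes with the largest rise and 2 with the largest fall were named, with AXIN2, LGR5, ZNRF3 and RNF43. LGR4, LEF1, CTNNB1, NOTUM, APCDD1, TRABD2B, CER1 and the marker genes were added after their values were seen. Positions are from RefSeq and exon overlaps from GENCODE, both on GRCh38, and 48083 gene names were in RefSeq.

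As alternatives the pseudocount was 0.1, the level filter was dropped or raised to 5 TPM, and values were rescaled by median-of-ratios or quantiles. The variance trend was left out, a replicate block added, 3 groups fitted, limma voom run on the recovered reads, a log2 fold change of 1 required, and each library left out. For the ligand sums the most abundant ligands were left out and the mixed class was counted as canonical. Leaving out 1 replicate of both clones and using GENCODE lengths, and leaving CER1 out of the DE marker sum, were chosen after seeing the data. R 4.3.3, limma 3.58.1, Python 3.11.15, numpy 2.4.6, pandas 2.3.3, scipy 1.17.1 and matplotlib 3.10.9 were used.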

Additional observations from a re-analysis of the deposited data

Results flagged for a closer look

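FZD5 and FZD8 together made up 39.7% of the Frizzled TPM in clone 2 replicate 1 and 36.9% to 37.1% in the other 3 PDHB+/- libraries. The gap between this library and the nearest of the others was 0.912 of the range of the 4, above the 95% critical value of Dixon's test for 4 values. The wild-type libraries were at 61.5% and 60.6%. Of 50 values examined in this way 1 was picked out, and chance alone would pick out about 2.5. No member was called between the clones, and the cause of the higher value was not tested.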

How the results depend on the processing

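The 16 members called between PDHB+/- and wild-type became 7 when a log2 fold change of at least 1 was also required. The share of all genes was not taken at that requirement, so this count has no background beside it. When a PDHB+/- library was left out the count was 14 to 17, beside 26.6% to 30.0% of all genes. The lowest counts came without wild-type replicate 1 (8) or 2 (9), beside 10.2% and 9.58% of all genes instead of 31.7%, and there the lone wild-type library was assumed to vary like the others. Without a filter on low values, clone 1 gave 8 members and clone 2 gave 7, with more genes tested (5.58% and 5.14% of them called). Leaving out a library leaves a single library in 1 group of the 3-group fit. The lowest such counts for the clones stand above, beside the shares of all genes. The difference in canonical share, 6.01 points, was -1.64 without the most abundant ligand of each list, -1.89 with GENCODE lengths and 2.61 to 9.42 when each library was left out.

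The sign of uncalled members turned under 3 scalings, for FZD7 to -0.069 with median-of-ratios scaling, -0.079 with quantile normalization and -0.065 with limma voom, for FZD3 to -0.054, -0.020 and -0.059, for LRP5 to -0.13, -0.10 and -0.13, and for SFRP1 to -0.11, -0.20 and -0.11. Without replicate 1 of both clones FZD7 gave -0.052, LRP5 -0.00035, SFRP1 -0.22 (called) and WNT5B 0.011. Leaving out single libraries gave -0.35 to 0.090 for WNT5B, -0.089 to 0.12 for LRP5 and -0.087 to 0.13 for SFRP1. The cause of these turns was not tested. For PDHB+/- against wild-type, over the 26 tested members and their alternatives, 375 values kept their direction and call, 26 lost the call, 12 gained it and 20 changed sign. For the 16 members followed in each clone, 179 values kept both in clone 1, 39 lost the call and 1 gained it, and in clone 2 these numbers were 165, 44 and 10.

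With the replicate block 17 members were called (13 higher, 4 lower), and 13 in clone 1 and 16 in clone 2, beside 36.2%, 25.6% and 26% of all genes. The labels give the replicates a number and no shared batch. The difference between replicates correlated across genes at 0.353 between the clones, -0.012 between wild-type and clone 1 and -0.0075 between wild-type and clone 2. Depth limits the ligands and R-spondins under the filter, which rest on few reads.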
